A study of Mus musculus with 57 samples.

Results

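The hearts compared here came from the chronic arm of a study of doxorubicin (Doxo), an anthracycline cancer drug with known toxicity to heart muscle, and of nicotinamide mononucleotide (NMN), a precursor that cells convert to NAD+. They were the 6 Doxo-NMN hearts and the 5 vehicle (Ctrl) hearts of the chronic count table, chosen by their labels, and they made up 11 of the 57 samples of the series. All were hearts of wild-type male C57BL6/J mice that were 14 to 16 weeks old when dosing began. Doxo-NMN mice received 5 intraperitoneal injections of 4 mg/kg Doxo within 2 weeks, for a cumulative 20 mg/kg, and drank water with NMN at 500 mg/kg/day from 5 days before the first injection until the hearts were taken at day 60. Ctrl mice received PBS and plain water. Another 6 hearts (Doxo) came from mice given the same injections and plain water, and served here for reference only. No group received NMN without Doxo, so the comparison with Ctrl joins the effects of both agents, which cannot be told apart in it. Hearts came from mice that were alive at day 60, and expression was measured by poly(A)-selected RNA-seq.

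Doxo intercalates into DNA and poisons topoisomerase II, so that double-strand breaks, p53 signalling and mitochondrial damage are the textbook lines of its cardiotoxicity. NMN enters NAD+ synthesis directly below NAMPT, the enzyme that makes it from nicotinamide, and NAD+ is consumed by PARPs, sirtuins and CD38. The question put to the data was what still set these hearts apart from vehicle hearts some weeks after the last Doxo injection, with NMN present throughout.

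Few genes differed. Of 14960 genes tested, 6 were called (edgeR quasi-likelihood test, Benjamini-Hochberg adjusted p under 0.05), which is 0.0401% of those tested, and all 6 were higher in Doxo-NMN. A further measure was whether the values of the groups overlapped at all. The lowest Doxo-NMN heart stood above the highest Ctrl heart for 63 genes (0.421% of those tested) and the highest Doxo-NMN heart stood below the lowest Ctrl heart for 53 (0.354%). At an unadjusted p under 0.05 there were 707 genes (4.73%), of which 356 were higher and 351 lower. DESeq2 called 8 genes (0.0535%) and limma voom with sample weights called 26 (0.174%), and each of those sets held all 6.

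Of the 6 called genes, 5 were predicted gene models, Gm10800, Gm10801, Gm26870, Gm10722 and Gm21738, and these were copies of a single repeat family. The mouse major (gamma) satellite is a tandem repeat that fills the pericentromeric heterochromatin of mouse chromosomes, where it is normally kept silent by repressive histone marks and DNA methylation. In the GRCm38 annotation (the build of the deposited counts), Gm10801 lies at chr2:98662237-98664083 and Gm10800 at chr2:98666547-98667301. Gm26870 (chr9:3000282-3038313), annotated as a long intergenic non-coding RNA, spans Gm10722 (chr9:3000922-3002330) on the opposite strand, and Gm21738 lies at chr14:19415857-19418930. The transcripts of all 5 share an exact run of 42 bases. It is given in capitals within the stretch of transcript around it, because it is the sequence that all 5 models have in common. The sequences are from the GENCODE transcripts, in the annotated sense except that of Gm26870, which is its reverse complement.
Gm10800: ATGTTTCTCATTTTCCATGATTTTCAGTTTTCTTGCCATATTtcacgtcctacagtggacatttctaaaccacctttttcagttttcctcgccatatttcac
Gm26870: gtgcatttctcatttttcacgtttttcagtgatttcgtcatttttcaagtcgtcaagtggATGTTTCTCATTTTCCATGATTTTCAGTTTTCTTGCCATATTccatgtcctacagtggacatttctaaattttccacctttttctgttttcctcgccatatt
Gm10722: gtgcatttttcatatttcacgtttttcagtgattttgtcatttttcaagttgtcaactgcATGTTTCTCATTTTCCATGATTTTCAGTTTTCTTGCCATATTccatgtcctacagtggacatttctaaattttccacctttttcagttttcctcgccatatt
Gm10801: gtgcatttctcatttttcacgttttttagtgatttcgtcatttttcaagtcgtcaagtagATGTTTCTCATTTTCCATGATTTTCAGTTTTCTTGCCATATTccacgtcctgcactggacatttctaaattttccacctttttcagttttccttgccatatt
Gm21738: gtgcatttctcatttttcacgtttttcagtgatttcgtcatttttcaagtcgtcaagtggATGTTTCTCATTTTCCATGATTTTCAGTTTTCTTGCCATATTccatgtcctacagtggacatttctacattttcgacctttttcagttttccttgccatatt

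Single models matched themselves best when shifted by 225 to 237 bases. A search of all annotated transcripts for models sharing at least 10% of their 25-base words with the called models found 13 in the count table, on chromosomes 2, 9 and 14. Of these, 5 passed the filter on low counts, and they are the called models with which the search was started. They could pass through the groups in which they are high, as Gm10722 with its few Ctrl counts shows. The other 8 lie on chromosome 9, and 1 of them had no count in any heart. Since these models share sequence, they were read as 1 signal and not as independent genes, and how the authors' counting placed reads that map to several loci is not given in the sources used here.

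Gm10800 carried 72.9% of the counts of the 13 models in Doxo-NMN hearts. Its levels in the 5 Ctrl hearts were 2.34, 0.775, 0.547, 1.17 and 0.396 CPM (counts scaled to library size), and in the 6 Doxo-NMN hearts the lowest was 9.62, the median 14.8 and the highest 26.1 CPM. The lowest Doxo-NMN heart was therefore well above the highest Ctrl heart, and the log2 fold change was 3.92 ± 0.33 (SE, n = 6 and 5, edgeR adjusted p = 3.2e-06). Behind these levels were 7 to 43 counts of Gm10800 per Ctrl heart and 210 to 544 per Doxo-NMN heart. Doxo hearts ran from 20.7 to 30.7 CPM.

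The other 4 tested models were lower in level and were called in the same direction. The log2 fold changes were 3.52 ± 0.43 for Gm26870 (SE, edgeR adjusted p = 0.000667), 3.23 ± 0.42 for Gm10801 (0.000804) and 2.76 ± 0.49 for Gm21738 (0.0398). Gm10801 stayed at or below 0.327 CPM in Ctrl hearts and at or above 0.892 CPM in Doxo-NMN hearts. Gm10722 had 3 counts in all over the 5 Ctrl hearts and 88 over the 6 Doxo-NMN hearts, a depth-scaled ratio of 21.1 with a counting interval (exact, 95%) of 6.98 to 104. Its edgeR log2 fold change was 4.15 ± 0.52 (SE, adjusted p = 0.000667). Gm21738 was at 0 in 2 Ctrl hearts, and its call was lost in 8 of the 11 fits that left out 1 heart, in the fit of the compared groups alone and in the fit with an atrial marker covariate (adjusted p up to 0.235 over all alternatives). The 8 models that were too low to test had 6 counts in Ctrl and 85 in Doxo-NMN hearts, a depth-scaled ratio of 10.2 (counting interval 4.49 to 28.5). Both counting intervals pool the hearts of a group and leave out the spread between hearts. The 8 untested models were found through the called ones, so their direction is a description.

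Summed over all 13 models, Ctrl hearts held 3.59, 1.31, 0.795, 1.81 and 0.792 CPM. Doxo-NMN hearts ranged from 13.3 to 35.5 CPM with a median of 20.7, and Doxo hearts from 27.9 to 43.8 CPM. The 1405 olfactory receptor genes of the table, which heart barely transcribes, summed to 22.4 to 41.9 CPM in Ctrl and 25.3 to 42.8 CPM in Doxo-NMN hearts, ranges that overlapped. Of these genes, 1186 had no count in any of the 11 hearts. The part of genomic DNA or of other RNA classes in the satellite signal was not tested. Genes of the mitochondrial DNA took 20.2% to 28.5% of all counts in Ctrl and 18.5% to 26.8% in Doxo-NMN hearts. In the acute hearts these models were not analysed here.

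**Figure D1:**
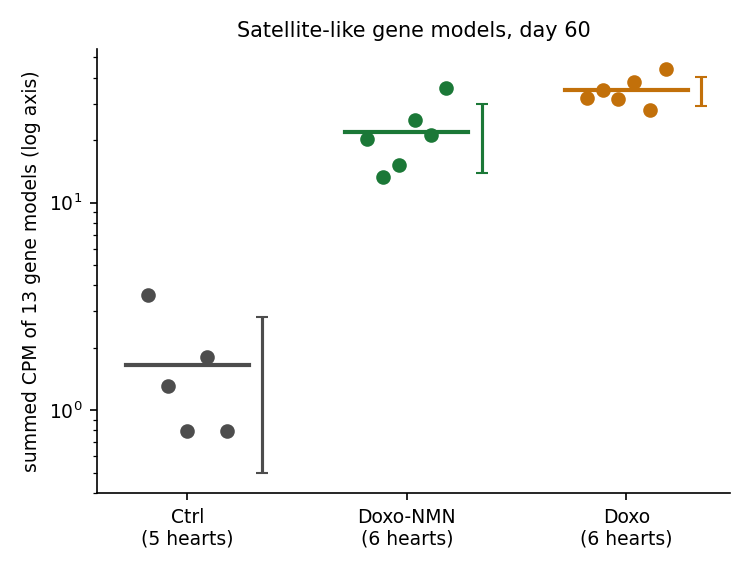
Summed CPM (log axis) of the 13 gene models that share the satellite repeat, with 1 point per heart, a line at the group mean and a bar of 1 SD beside it. The 5 Ctrl hearts lie between 0.792 and 3.59, the 6 Doxo-NMN hearts between 13.3 and 35.5 and the 6 Doxo hearts between 27.9 and 43.8.

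Ramp1 was the only called gene outside the repeat. It encodes a single-pass membrane protein that pairs with the calcitonin receptor-like receptor, encoded by Calcrl, to form the receptor for CGRP, a vasodilator peptide of sensory nerves, and it lies at chr1:91179822-91225196. Its levels were 8.06, 7.84, 8.30, 8.88 and 7.24 CPM in the Ctrl hearts and 11.5 (lowest), 12.7 (median) and 16.8 CPM (highest) in the Doxo-NMN hearts. Every Doxo-NMN heart was above every Ctrl heart, with a log2 fold change of 0.75 ± 0.12 (SE, n = 6 and 5, edgeR adjusted p = 0.0162). Doxo hearts were at 8.90 to 12.3 CPM, overlapping the Doxo-NMN hearts, and did not pass against Ctrl (log2 fold change 0.42 ± 0.12, adjusted p = 0.453). Nor was the direct difference between Doxo-NMN and Doxo called (0.34 ± 0.11, 95% interval 0.11 to 0.56, adjusted p = 0.999).

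The rest of this receptor system, looked up after Ramp1 was seen, gave no call. Calcrl was at 12.1 to 22.5 CPM in Ctrl and 11.6 to 23.6 CPM in Doxo-NMN hearts. Ramp2 and Ramp3, whose products turn the same receptor into a receptor for adrenomedullin, had log2 differences of -0.07 ± 0.16 and -0.03 ± 0.17 (SE). Adm, the adrenomedullin gene, was at -0.03 ± 0.16. Calca and Calcb, which encode CGRP, were below 0.25 CPM in every heart. The Ramp1 call was lost in the fit of the compared groups alone (adjusted p = 0.0631) and with the replicate number as a block (0.0766). It was also lost when Ctrl heart 2, 3 or 5 or Doxo-NMN heart 5 or 6 was left out (adjusted p from 0.0529 to 0.0855), and when Ctrl hearts 1 and 2 were both left out (log2 fold change 0.74, adjusted p = 0.173).

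**Figure D2:**
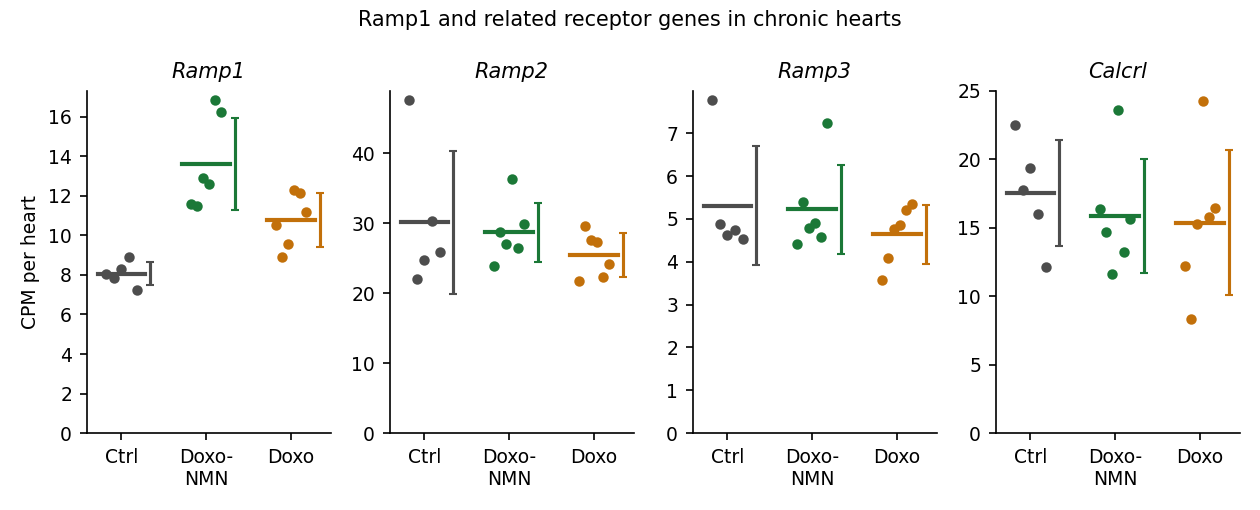
CPM of Ramp1, Ramp2, Ramp3 and Calcrl in each chronic heart, with lines at the group means and bars of 1 SD. For Ramp1 the 6 Doxo-NMN hearts (11.5 to 16.8 CPM) lie above the 5 Ctrl hearts (7.24 to 8.88 CPM), whereas the groups overlap for the other 3 genes.

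Among the genes whose groups did not overlap, 48 of the 63 higher and 45 of the 53 lower ones had a mean of at least 1 CPM, and the 10 with the smallest unadjusted p in each direction were examined. On the higher side these were, beside Gm10800, Ramp1 and Gm21738, the genes Tgfb2, Rpp25, Usp11, Ncam1, Nupl2, Hmgn1 and Gnai1. None of these 7 passed the adjusted threshold in edgeR. Tgfb2, a ligand of the TGF-beta pathway that drives matrix production by fibroblasts, was at 13.8, 9.97, 9.89, 9.36 and 10.4 CPM in Ctrl hearts. It was at 14.4 (lowest), 16.6 (median) and 21.6 CPM (highest) in Doxo-NMN hearts, a log2 fold change of 0.68 ± 0.14 (SE, edgeR adjusted p = 0.236). DESeq2 and voom both called it (adjusted p = 0.0116 and 0.0159). In Doxo hearts Tgfb2 was called by edgeR (0.89 ± 0.14, adjusted p = 0.0123). Rpp25, a subunit of the RNA-processing enzymes RNase P and RNase MRP, had a log2 difference of 0.76 ± 0.18. Usp11, a deubiquitinase, was at 0.44 ± 0.11, and Hmgn1, a nucleosome-binding protein, at 0.22 ± 0.07. Ncam1, a neural and muscle cell adhesion molecule, was at 1.17 ± 0.30, with 8.55 CPM in Doxo-NMN heart 4 against at most 5.03 in the other Doxo-NMN hearts.

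On the lower side stood Sv2c, Capn3, Plekhg1, Chst1, Ift122, 6430562O15Rik, C2cd2, Zfp78, Abcg1 and Sos1. Capn3, the muscle calpain whose loss causes limb-girdle muscular dystrophy, was at 6.70, 8.28, 7.31, 6.22 and 7.98 CPM in Ctrl hearts and 3.27 (lowest), 4.87 (median) and 5.22 CPM (highest) in Doxo-NMN hearts. The log2 fold change was -0.65 ± 0.14 (SE, edgeR adjusted p = 0.236), and DESeq2 and voom called it (adjusted p = 0.00972 and 0.0277). In Doxo hearts it was called by edgeR (-0.81 ± 0.14, adjusted p = 0.0238). Sv2c, a synaptic vesicle glycoprotein, was at 1.04 to 2.21 CPM in Ctrl and 0.516 to 0.827 CPM in Doxo-NMN hearts (-1.10 ± 0.23, edgeR adjusted p = 0.236), and voom called it (adjusted p = 0.0159). Abcg1, a cholesterol exporter, had a log2 difference of -0.51 ± 0.16, and Ift122, a protein of transport within cilia, a difference of -0.66 ± 0.19. Sos1, an activator of Ras, was at -0.27 ± 0.08. The edgeR adjusted p of the last 3 was 0.855 each.

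**Figure D3:**
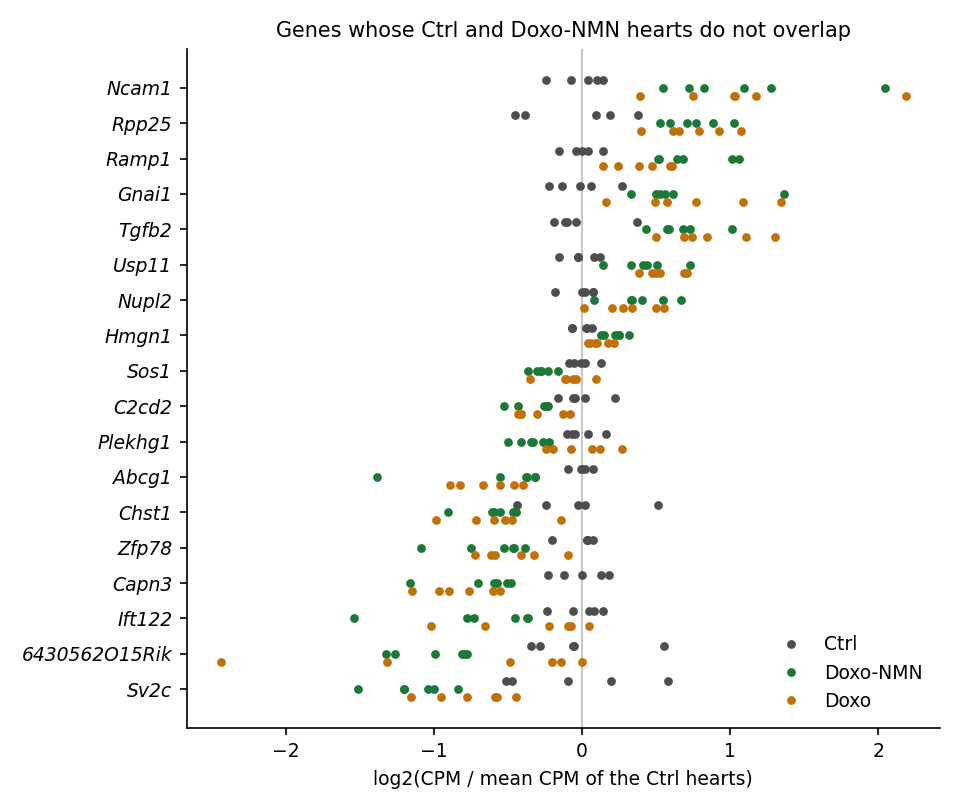
Log2 ratio of each heart's CPM to the Ctrl mean for 18 of the 20 genes named by this rule (Gm10800 and Gm21738 are in the plot of the satellite models). Doxo-NMN points lie to 1 side of all Ctrl points by construction. All 6 Doxo points lie on that side for Ramp1, Tgfb2, Rpp25, Usp11, Ncam1, Capn3 and Abcg1. They are set against the same Ctrl hearts by which the genes were picked, so their side is a description.

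Genes of NAD+ metabolism showed no call in either direction. Of 15 tested genes of NAD+ synthesis and salvage, 6 had a positive log2 difference, none had an unadjusted p under 0.05 and the median was -0.06, beside 0.01 over all genes tested. Nampt was at 90.7, 202, 178, 155 and 159 CPM in Ctrl hearts and at 134 (lowest), 150 (median) and 170 CPM (highest) in Doxo-NMN hearts, a log2 difference of -0.06 (95% interval -0.44 to 0.33). Nmrk2, the muscle nicotinamide riboside kinase, was at 0.07 (-0.22 to 0.36). Nmnat3, which makes NAD+ from NMN in mitochondria, was at 0.10 (-0.16 to 0.36). Nnmt, which methylates nicotinamide for disposal, was at 0.08 ± 0.22 (SE). Of the 11 tested genes of nicotinamide clearance and NMN handling, Nt5e, an ectonucleotidase that can cleave NMN, was at 0.50 ± 0.21 and Nudt12, an NADH pyrophosphatase, at -0.31 ± 0.11, both at an unadjusted p under 0.05 and not called. Among 18 NAD+ consumers, the unadjusted p was under 0.05 for Parp14 (-0.42 ± 0.14) and Bst1 (0.70 ± 0.29), and neither was called. Parp1 was at 0.09 (-0.23 to 0.41), Sirt1 at 0.15 (-0.13 to 0.42), Sirt3 at -0.04 (-0.32 to 0.24) and Cd38 at -0.30 (-0.74 to 0.13). Without Ctrl heart 1, which had the highest Cd38, that value was -0.06.

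The same held for the lists tied to Doxo toxicity. Of 34 tested p53 targets, 19 were above 0 and the median log2 difference was 0.02. Only Gadd45b reached an unadjusted p under 0.05 (1.02 ± 0.40, edgeR adjusted p = 0.999). Of 30 genes of topoisomerases and double-strand break repair, Brca1 (0.996 ± 0.39) and, downward, Top2a (-1.25 ± 0.44) and Chek2 (-0.60 ± 0.26) did so. For 27 NRF2 antioxidant genes the median was -0.03 and for 36 subunits of complex I it was -0.02, with no member of either list at an unadjusted p under 0.05. A panel of 31 mitochondrial genes that the study had selected on these same samples lay below 0 in 31 of 31 members, with a median of -0.07 in Doxo-NMN and of -0.17 in Doxo against the same Ctrl hearts. The study named these genes, on these hearts, as reduced by Doxo and mitigated by NMN. Neither their direction nor the smaller median in Doxo-NMN is therefore independent evidence, and no member was called.

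In all, 43 lists of pathways and families and 22 lists of cell type markers held 1332 distinct tested genes. None of these was called by edgeR, while DESeq2 called 1 (Tgfb2) and voom 2 (Tgfb2 and Nppa). Among the 43 lists other than markers, those with medians farthest from 0 were the immediate early genes (AP-1 and others, median log2 difference 0.40, 23 of 26 positive), the cytosolic ribosomal proteins (0.18, 78 of 82 positive), the glucocorticoid-induced genes (0.18, 13 of 18 positive), the interferon-stimulated genes (-0.17, 5 of 39 positive) and the proliferation genes (-0.36, 8 of 37 positive). At an unadjusted p under 0.05 were 9 immediate early genes upward, 15 ribosomal protein genes upward and 10 proliferation genes downward, among them Top2a, Mki67, Kif23 (-1.15 ± 0.42) and Racgap1 (-0.996 ± 0.31). For comparison, 2.38% of all tested genes were higher and 2.35% lower at that threshold. Members of a list rise and fall together between hearts, so these counts are not independent. Among the immediate early genes, Doxo-NMN heart 3 stood apart, with Fosb at 174 CPM against 0.496 to 4.10 CPM in the other Doxo-NMN hearts. The interferon median turned to 0.08 without Ctrl hearts 1 and 2, whose part in the other lists can be read in the plot of medians.

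**Figure D4:**
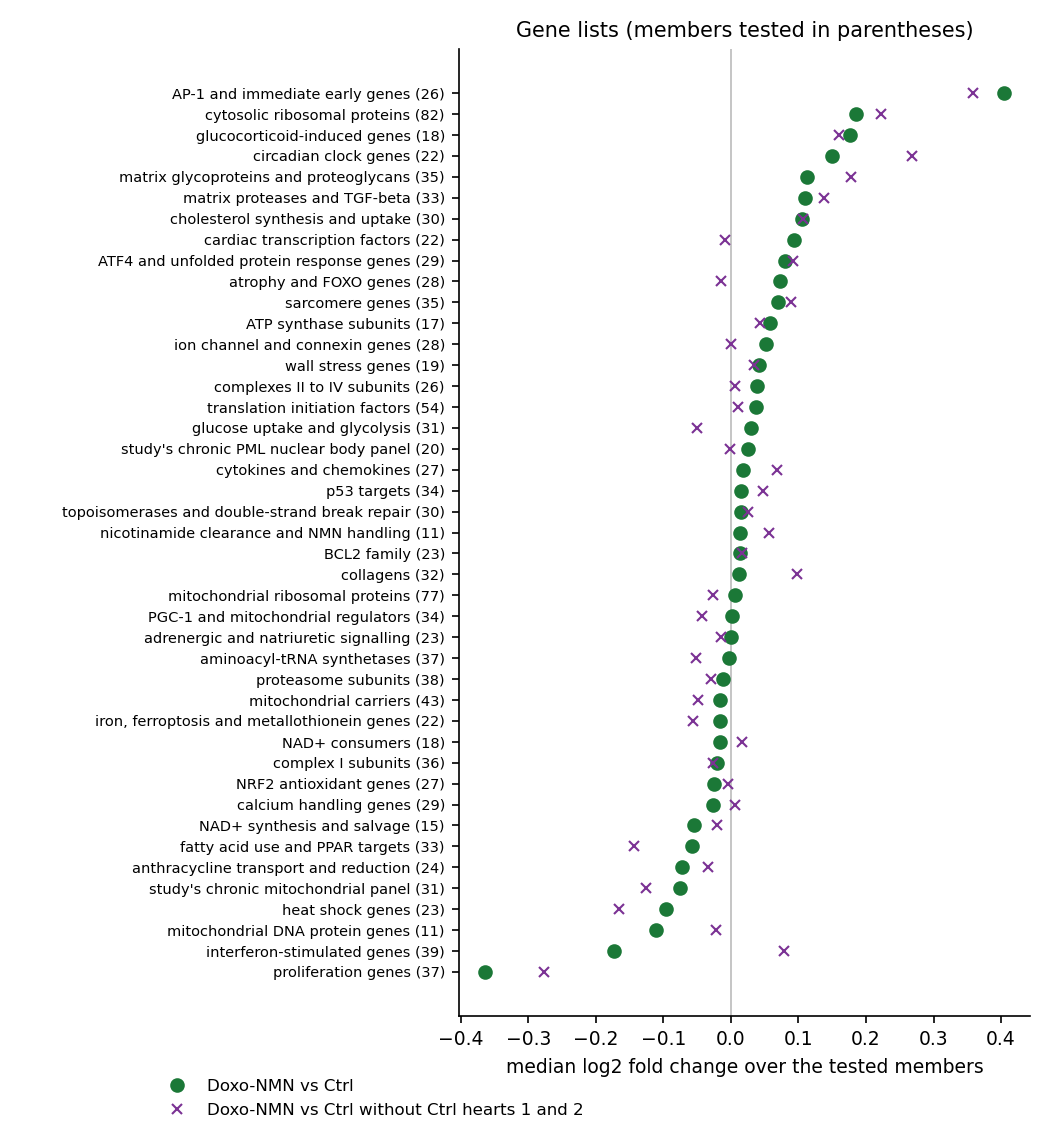
Median log2 fold change of Doxo-NMN against Ctrl over the tested members of each of 43 gene lists (green), and the same without Ctrl hearts 1 and 2 (crosses). Medians ran from -0.36 (proliferation genes) to 0.40 (immediate early genes), and the crosses of the interferon-stimulated genes lie on the other side of 0.

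None of 19 tested genes of ventricular wall stress was called by edgeR. Myh7, the slow myosin heavy chain that rodent ventricles re-express under load, was at 598, 412, 345, 457 and 370 CPM in Ctrl hearts and at 666 (lowest), 823 (median) and 1884 CPM (highest) in Doxo-NMN hearts. The groups did not overlap, yet the test, whose spread also covers a Doxo heart at 23152 CPM, gave a log2 fold change of 1.19 ± 0.76 (SE, edgeR adjusted p = 0.999). Nppa, which encodes atrial natriuretic peptide, was at 202, 86.8, 79.5, 66.3 and 81.4 CPM in Ctrl and at 116 to 242 CPM in Doxo-NMN hearts (0.97 ± 0.34, edgeR adjusted p = 0.924), and voom called it (adjusted p = 0.0149). Ctgf, a matricellular protein induced downstream of TGF-beta, was at 31.1 to 43.5 CPM in Ctrl and 45.9 to 81.0 CPM in Doxo-NMN hearts. It was not called in the fit of the 3 groups (0.94 ± 0.40, adjusted p = 0.999) but was called when only the compared groups were fitted. Nppb, the ventricular natriuretic peptide, was at 0.41 ± 0.24, Ankrd1, a stretch-responsive ankyrin repeat protein, at 0.30 ± 0.23, and Acta1, the skeletal actin gene, at -0.53 ± 0.26. With the summed atrial markers as a covariate the Myh7 and Ankrd1 differences turned negative (-0.58 and -0.27). Most of that sum was Nppa (means of 202 of 282 CPM in Doxo-NMN and 308 of 341 CPM in Doxo hearts). Wall stress genes were thus adjusted largely for another wall stress gene, and this fit cannot tell atrial tissue from wall stress.

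Other tissue moved with the groups in some hearts. Ctrl hearts 1 and 2 held more RNA of skeletal muscle, with Tnnt3, the fast troponin T, at 458 and 418 CPM against 126 to 156 CPM in the other Ctrl hearts and 76.1 to 143 CPM in Doxo-NMN hearts. The 9 skeletal muscle markers summed to 2356 to 4156 CPM in Ctrl and 1819 to 2374 CPM in Doxo-NMN hearts, 7 of the 9 were lower at an unadjusted p under 0.05, and their median log2 difference of -1.10 became -0.20 without those 2 hearts. Capn3, which skeletal muscle also expresses, was at 6.70 and 8.28 CPM in those hearts and at 6.22 to 7.98 CPM in the other Ctrl hearts. Doxo-NMN heart 4 held atrial RNA, with Myl4, an atrial light chain, at 83.8 CPM, Doxo-NMN heart 5 had 14.3 CPM and the rest of the Doxo-NMN hearts at most 2.02 CPM. Ctrl heart 5 had 7.19 CPM of Myl4 and the other Ctrl hearts 1.65 to 2.39 CPM. Of 6 tested atrial markers 5 were higher at an unadjusted p under 0.05, and of 7 epicardial markers 5 were higher and 1, Wt1, was lower (-0.66 ± 0.26), beside 2.38% and 2.35% of all genes tested. None of these was called by edgeR, and voom called Nppa. The part of these other tissues in the results was not tested. The markers of ventricular myocytes summed to 10642 to 14032 CPM in Ctrl and 11995 to 16017 CPM in Doxo-NMN hearts. Of the 22 marker sums, none passed after adjustment (two-sided exact permutation test, lowest adjusted p = 0.0952, for the skeletal muscle and the atrial sums). Most of the mean atrial sum was Nppa, which is also a wall stress gene. Nppa made up 103 of 139 CPM in Ctrl and 202 of 282 CPM in Doxo-NMN hearts, so that sum does not measure atrial tissue alone. The smallest p that this exact test allows is 0.00433, which adjusted over 22 sums cannot pass for 1 sum alone, so that these tests do not show that the sums were alike. In RNA of heart tissue, fewer cells of a type and less RNA per cell cannot be told apart. Without Ctrl hearts 1 and 2, a choice made after seeing these values, 7 genes were called, namely the 5 satellite models, Podn (0.85) and Sv2c (-1.36).

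Against the hearts given Doxo alone, no gene was called by edgeR, DESeq2 or voom, and 441 of 14960 genes (2.95%) had an unadjusted p under 0.05. For the satellite models the direct log2 differences were all negative. That of Gm10800 was -0.64 (95% interval -1.11 to -0.17, edgeR adjusted p = 0.999) and that of Gm10801 -0.90 (-1.44 to -0.36, adjusted p = 0.999). The hearts of both groups overlapped for Gm10800, Gm10801, Gm26870, Gm21738 and the sum of the 13 models. They did not for Gm10722 (0.229 to 0.863 CPM in Doxo-NMN and 0.984 to 1.32 CPM in Doxo hearts), as for 0.16% of all genes tested. Doxo against the same Ctrl hearts gave 9 calls (0.0602%), the 5 satellite models, Tgfb2, Slc30a3, Sprr1a and Capn3. Slc30a3, a zinc transporter, was at 0.145 to 0.327 CPM in Ctrl, 0.412 to 1.01 in Doxo-NMN and 0.606 to 1.09 CPM in Doxo hearts. Sprr1a, a stress-induced envelope protein, was at 0.0484 to 0.249 CPM in Ctrl, 0.375 to 1.96 in Doxo-NMN and 0.736 to 6.08 CPM in Doxo hearts. Both were higher than every Ctrl heart in every Doxo-NMN heart and were not called there (1.32 ± 0.33 and 2.46 ± 0.73, edgeR adjusted p = 0.586 and 0.855).

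The same comparison at 5 days was available from the acute arm, with 13 Doxo-NMN and 14 Ctrl hearts from mice given a single 20 mg/kg Doxo injection and intraperitoneal NMN at 180 mg/kg/day. The arms also differed in mouse supplier, chow, dose schedule, NMN dose and route, age and sequencing site, which cannot be told apart from time. The difference between the chronic and acute log2 fold changes was called for 228 of 14805 genes (1.54%), 105 (0.709%) with the chronic value the more positive and 123 (0.831%) with it the more negative. Ramp1 was the only 1 of the 228 that was also called in chronic Doxo-NMN hearts, and the satellite models were not in this fit. Acute Ctrl hearts held 4.90 to 10.4 CPM of Ramp1 and acute Doxo-NMN hearts 1.73 to 5.42 CPM, with an acute log2 fold change of -0.99. The difference between the arms was 1.73 ± 0.26 (SE, edgeR adjusted p = 9.9e-05) and was called in 16 of 16 fits, which share most of their hearts. The chronic change by which Ramp1 was picked is part of this difference.

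Red blood cell genes differed widely between the arms. The 6 markers analysed, the globins Hba-a1, Hba-a2, Hbb-bs and Hbb-bt with the heme synthesis enzyme Alas2 and the anion exchanger Slc4a1, were all called for the difference, with acute log2 fold changes of -6.91 to -10.73 and chronic ones of -0.83 to -0.51. Their summed level in chronic hearts was 132 to 434 CPM in Ctrl and 93.5 to 464 CPM in Doxo-NMN hearts, which overlapped, whereas in acute hearts it was 438 to 4317 and 0.209 to 2.81 CPM. Of 22 clock genes, 9 were called, and 5 in the fit without Ctrl heart 4. The clock-controlled repressors Per2 (acute 1.79, chronic 0.13) and Per3 (1.61 and 0.24) and the transcription factors Dbp (1.79 and 0.36) and Tef (1.02 and 0.22) had the higher acute values, and Arntl, the activator of the clock, the lower (-2.17 and -0.88). Within the chronic comparison 18 of the 22 were positive (median log2 difference 0.15) and none was called. At an unadjusted p under 0.05, 4 were higher and 2 lower, beside 2.38% and 2.35% of all genes tested. They summed to 823 to 1052 CPM in chronic Ctrl, 1064 to 1194 CPM in chronic Doxo-NMN and 941 to 1352 CPM in chronic Doxo hearts. Clock genes depend on the hour of collection, which is not given in the sources used here. Of the immediate early genes, 6 were called as well, with 1 called in the fit without Doxo-NMN heart 3 and 3 in each of the fits without Ctrl heart 4 or 5.

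**Figure D5:**
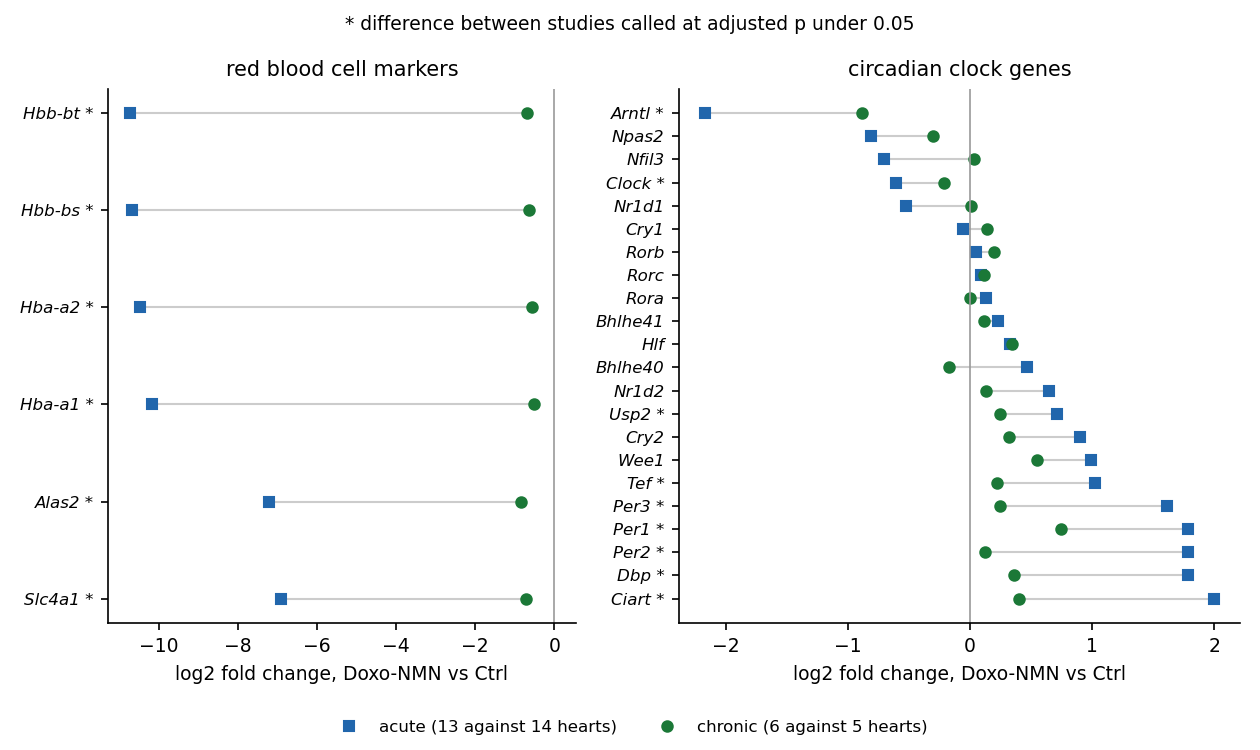
Log2 fold change of Doxo-NMN against Ctrl in the acute (squares) and chronic (circles) hearts, from 1 fit of both arms, for 6 red blood cell markers and 22 circadian clock genes. Asterisks mark a called difference between the arms, and the chronic values of the red blood cell markers lie between -0.83 and -0.51 while the acute ones lie at or below -6.91.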

How the data were processed

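RNA of frozen hearts was poly(A)-selected and sequenced by the authors as single-end reads, aligned to mm10 with STAR 2.7.3a and counted per gene with featureCounts 2.0.0 (versions per the submitters' processing notes). The deposited values are raw read counts per gene. Strandedness and the treatment of reads with several loci are not given in the sources used here. The chronic table has 54658 genes, and 21664 had no count in any chronic heart. Library totals of the 11 hearts were 17769886 to 23862287 counts, so that 3 counts, the limit a count of 0 allows, were 0.126 to 0.169 CPM per heart (counting error only).

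The 17 chronic hearts were fitted together in edgeR 4.0.16 (R 4.3.3, TMM, filterByExpr by group, quasi-likelihood F test), leaving 14960 genes, and p-values were adjusted over all of them. CPM values use TMM library sizes. SE is the absolute log2 fold change divided by the square root of F. The acute and chronic tables were fitted jointly, with arm, group and their interaction as terms, for the difference between arms. Alternatives were DESeq2 1.42.0, limma 3.58.1 with voom, other scalings and filters, a replicate block, a covariate and the omission of single hearts. On simulated data for Doxo-NMN vs Ctrl (14812 genes), edgeR recovered 86 of 100 genes changed by 1 and 100 of 100 changed by 2 on the log2 scale, and called 11 unchanged genes. The changes were planted only in better expressed genes, and many more genes changed than were called in the real hearts. No deviating hearts or other tissue were simulated. These shares therefore check the code and do not give the power in the real hearts. Replicate numbers of the labels did not pair the samples. No 2 hearts of a group agreed within sampling noise, and each heart was read as 1 replicate.

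Named genes were those called in Doxo-NMN vs Ctrl, the 10 per direction with the smallest unadjusted p among genes with groups that did not overlap and a mean of at least 1 CPM, up to 3 members of each list by p, genes called in the other chronic comparisons, and 15 genes of NAD+ metabolism and wall stress. Genes outside this rule (the CGRP receptor system, Ctgf, Podn, Mki67 and the clock and red blood cell genes of the comparison of arms) were chosen after their values were seen. Of the red blood cell markers, 2 are not reported here. The hearts, gene lists and tests were chosen with earlier results of these data known. Gene positions are from GENCODE vM21 (GRCm38), to which 54106 of the 54658 symbols matched. Python 3.11.15 was used for sums, exact permutation tests and plots.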

Additional observations from a re-analysis of the deposited data

Results flagged for a closer look

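In 124 sets of values (40 named genes and 22 marker sums in the Ctrl and in the Doxo-NMN hearts), 22 had a highest or lowest heart that stood apart from the rest by Dixon's criterion, and chance gives about 1 in 20. Ctrl heart 1 accounted for 10 of them. It held 13.8 CPM of Tgfb2, 6.86 of 6430562O15Rik, 21.6 of Cd38, 202 of Nppa and 2159 of Ankrd1, all above the other Ctrl hearts, and 18.8 of Nmnat1 and 11.7 of Nmnat3, below them. Its marker sums were high for the atrial markers (233 CPM), B cells (60.9) and platelets (22.6). Most of that atrial sum was Nppa, while the atrial light chains Myl4 and Myl7 were at 2.23 and 0.653 CPM in this heart.

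Doxo-NMN heart 4 accounted for 6, with 8.55 CPM of Ncam1 and 6.47 of Gnai1 and high marker sums for endocardium (69.1 CPM), fibroblasts (2693), mast cells (15.2) and Schwann cells and neurons (22.7). Its atrial RNA is given in the text. Leaving it out moved the count of called genes from 6 to 5.

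Of the rest, Doxo-NMN heart 1 had the highest Myh7 (1884 CPM against 666 to 1015 in the other 5) and the lowest Abcg1 (2.69 CPM). Doxo-NMN heart 5 had the lowest Ankrd1 (1139 CPM) and the highest red blood cell sum (464 CPM). Doxo-NMN heart 6 had the highest Slc30a3 (1.01 CPM), and Ctrl heart 3 the lowest Zfp78 (1.44 CPM).

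The change in Doxo-NMN against Ctrl differed between the chronic and acute arms (edgeR interaction, adjusted p under 0.05) for 4 named genes, beside 1.54% of all genes tested. All 4 were among the genes picked because their chronic groups did not overlap. That chronic change is part of the difference, so these calls are no separate evidence. The difference, chronic minus acute on the log2 scale, was 1.73 for Ramp1, 0.35 for Hmgn1, -1.85 for Sv2c and -0.81 for Abcg1. The first 3 were called in every one of the joint fits that tested them (16, 16 and 15), and Abcg1 in 11 of 16. These fits share most of their hearts.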

How the results depend on the processing

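The count of genes called in Doxo-NMN vs Ctrl (6) stayed at 4 to 8 under every alternative except voom with sample weights, which called 26 (16 higher, 10 lower), and leaving out single hearts gave 4 to 6. Gm10800, Gm10801 and Gm26870 were called in every fit. Ramp1 and Gm21738 were not called in the fit of the compared groups alone, which called 4. In Doxo vs Ctrl (9), DESeq2 gave 24, voom 54, no low-count filter 15 and the atrial covariate 4, and single omissions 5 to 11 (5 without Ctrl heart 2, 3 or 5). In Doxo-NMN vs Doxo every fit gave 0, single omissions included (0 to 0). The difference between arms (228) became 827 with voom and 140 to 249 without single hearts (140 without Ctrl heart 4). The list genes called (0) became 1 with DESeq2 and 2 with voom. The marker sums gave 0 with raw library totals too. The cause of these shifts was not tested.

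The replicate block gave 4 calls in Doxo-NMN vs Ctrl, 7 in Doxo vs Ctrl and 0 in Doxo-NMN vs Doxo. Ramp1 (adjusted p = 0.0766) and Gm21738 (0.184) were no longer called with the block. The deviations of same-numbered Ctrl and Doxo-NMN hearts correlated at -0.244 to 0.285, so the numbers were not read as pairs, and 1 of 5 Ctrl hearts correlated best with its own number.

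Directions turned only for genes that were never called. These were, with the atrial covariate, Nmnat1 (0.021), Nmrk2 (-0.18), Sirt3 (0.14), Myh7 (-0.58) and Ankrd1 (-0.27), with voom Nmrk2 (-0.0096), with the block Nampt (0.022), and without Ctrl hearts 1 and 2 Nmnat3 (-0.020) and Parp1 (-0.0016). In the group means, most of the marker sum behind the atrial covariate was Nppa. Without single hearts Nampt ran from -0.21 to 0.049, Nmnat3 from -0.034 to 0.15, Nmrk2 from -0.021 to 0.16, Nnmt from -0.072 to 0.23, Parp1 from -0.059 to 0.19 and Sirt3 from -0.15 to 0.036. Of 834 values of 40 named genes under alternatives, 789 kept their direction and side of the threshold, 19 were no longer called and 8 became called. Low counts of the satellite models in Ctrl limit their fold changes.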
